A study of Homo sapiens with 4 samples.

Results

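The aldo-keto reductases described here are 8 human genes, AKR1C1, AKR1C2, AKR1C3, AKR1C4, AKR1B1, AKR1B10, AKR1A1 and AKR7A2, in LNCaP cells given exosomes of another prostate cancer line, PC-3. The members were every probe set annotated to exactly 1 gene, that gene being one of the 8. This gave 13 of 44988 such probe sets, for 6 of 18132 genes. AKR1B1, the aldose reductase, and AKR1A1, the general aldehyde reductase, were not analysed here. The 8 genes were chosen by a rule that used the log2 difference between exosome and PBS arrays, so that difference is given for them as a description, with no p-value, and nothing is read from whether a member is past a threshold on it.

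The study held 4 Affymetrix arrays of LNCaP, an androgen-responsive line from a prostate cancer metastasis. Cells on 2 arrays had received exosomes, the small vesicles that cells shed, from PC-3, a line that grows without androgen. Cells on the other 2 arrays were labelled normal LNCaP and had received PBS, a buffer. All 4 arrays are therefore of 1 cell line, no exosomes of another cell type served as a control, and nothing in the labels shows that 2 arrays of a group are of separate cultures, so their spread, and each p-value, may be technical only.

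Aldo-keto reductases use NADPH to turn aldehydes and ketones into alcohols. The AKR1C enzymes act on steroids and prostaglandins: in the prostate AKR1C2 takes the potent androgen dihydrotestosterone to a weak one, while AKR1C3 makes testosterone from a weaker precursor. The AKR1B enzymes and AKR7A2 act on sugars, retinaldehyde and the reactive aldehydes left by lipid oxidation. Several of these genes are known targets of NRF2, the transcription factor that answers oxidative and electrophilic stress through antioxidant response elements.

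AKR1C1, AKR1C2, AKR1C3 and AKR1C4 lie on chromosome 10, within 256 kb and with AKR1C8 between AKR1C3 and AKR1C4 (chr10:4963415-5218949, GRCh38.p14, RefSeq). AKR1B10 is on chromosome 7 (chr7:134527567-134541412) and AKR7A2 on chromosome 1 (chr1:19302708-19312146). The 250 bases before the annotated starts of the AKR1C genes are shown because they show how alike the copies are whose signals differed below. They come from RefSeq's GRCh38.p14 annotation, which gave windows for 7 of the 8 genes, with 2 for AKR1C3. Capitals mark the bases that differ from the AKR1C1 window in a global alignment, and letters facing a gap there are capitals too.
AKR1C1, chr10:4963165-4963414, plus strand: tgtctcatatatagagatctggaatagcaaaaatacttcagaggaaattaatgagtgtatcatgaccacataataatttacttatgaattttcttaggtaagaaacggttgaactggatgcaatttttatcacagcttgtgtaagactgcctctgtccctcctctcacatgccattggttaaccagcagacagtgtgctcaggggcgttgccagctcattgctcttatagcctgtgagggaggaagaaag
AKR1C2, chr10:5003858-5004107, minus strand: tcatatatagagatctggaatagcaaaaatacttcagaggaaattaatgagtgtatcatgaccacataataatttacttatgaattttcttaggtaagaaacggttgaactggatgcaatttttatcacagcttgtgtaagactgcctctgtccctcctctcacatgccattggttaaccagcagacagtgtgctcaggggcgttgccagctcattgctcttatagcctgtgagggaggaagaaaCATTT
AKR1C3, the first start, chr10:5048531-5048780, plus strand: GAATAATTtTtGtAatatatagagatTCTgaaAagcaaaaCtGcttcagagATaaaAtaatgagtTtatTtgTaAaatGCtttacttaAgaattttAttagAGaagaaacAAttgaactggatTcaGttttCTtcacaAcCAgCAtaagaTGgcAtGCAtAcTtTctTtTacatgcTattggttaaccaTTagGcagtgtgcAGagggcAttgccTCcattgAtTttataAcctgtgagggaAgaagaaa
AKR1C3, the second start, chr10:5094164-5094413, plus strand: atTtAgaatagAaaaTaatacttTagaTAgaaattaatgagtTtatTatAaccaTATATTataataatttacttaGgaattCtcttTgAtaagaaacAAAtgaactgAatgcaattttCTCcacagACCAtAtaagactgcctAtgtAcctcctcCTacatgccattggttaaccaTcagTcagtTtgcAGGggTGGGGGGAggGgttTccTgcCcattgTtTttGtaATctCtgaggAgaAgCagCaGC
AKR1C4, chr10:5196587-5196836, plus strand: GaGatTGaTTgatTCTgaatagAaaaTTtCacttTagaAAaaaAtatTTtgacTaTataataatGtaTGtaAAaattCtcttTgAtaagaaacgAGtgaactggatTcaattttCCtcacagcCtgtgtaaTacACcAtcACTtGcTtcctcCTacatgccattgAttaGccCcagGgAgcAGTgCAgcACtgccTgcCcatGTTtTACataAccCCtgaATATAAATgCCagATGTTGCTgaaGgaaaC
The AKR1C1 and AKR1C2 windows share an unbroken run of 245 bases, which is all of the AKR1C2 window but its last 5 bases. The AKR1C2 start shown lies inside the annotated span of that gene (chr10:4987775-5018000). Against AKR1C1, the windows of AKR1C3 were identical at 71.4% and 69.2% of aligned columns and that of AKR1C4 at 59.9%. The longest run that either AKR1C3 window shared with AKR1C1 was 12 and 19 bases, and for AKR1C4 it was 11. The core of the antioxidant response element, TGACNNNGC on either strand, was in 0 of these 5 windows, and in 3830 of all 35116 promoter windows of that length (10.9%). Among the other members with a window, AKR7A2 held 3 matches in each of its 2 overlapping windows. In the first they read TGACCGCGC, TGACCGGGC and, on the opposite strand, TGACCCGGC. The AP-1 motif TGACTCA, which with GC after it overlaps the core, was in 0 of the 10 windows of the members and in 4.2% of all windows, and 0.456% of all windows held such an overlap. A missing match says only that these letters are not in these 250 bases.

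The median intensity per array ran from 110.8 to 112.4 and the lowest value per array from 9.72 to 10.2, so no probe set is at 0. Of the markers of LNCaP 7 of 10 were measured and 0 passed the limma test (adjusted p under 0.05 over 18132 genes; unadjusted p under 0.05: 1 up, 0 down). KLK3, which encodes PSA, read between 13847 and 14526 on the 4 arrays. The summed level of the measured LNCaP markers was 48757 to 49444 with exosomes and 48216 to 48475 with PBS. The labels' extraction text speaks of brain tissue. Of the markers of brain 9 of 10 were measured and 0 passed that test (unadjusted p under 0.05: 1 up, 1 down). Their summed level was 1896 to 1906 with exosomes and 1783 to 1861 with PBS. Of that sum MBP alone gave 867 and 868 against 764 and 764, while 5 of the 9 markers had a difference below 0. A comparison of the 2 groups cannot tell which material all the arrays share. The summed levels of the LNCaP and brain markers are given for that question, which was not tested. For the 15 measured of 16 markers of PC-3, 0 passed (unadjusted p under 0.05: 0 up, 1 down), and the sum was 1620 to 1633 with exosomes and 1682 to 1692 with PBS. The part of RNA carried in by the vesicles was not tested.

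AKR1C1, a ketosteroid reductase that inactivates progesterone, had the largest difference of the 6 measured members. On its brighter probe set, 11719172_x_at, it read 86.2 and 113 after exosomes against 35.5 and 34.4 after PBS. Both exosome arrays lay above both PBS arrays, by at least 1.26 on the log2 scale. In RNA of a whole culture, more cells that make a transcript and more of it per cell cannot be told apart. The exosome mean was 99.8 ± 19.2 and the PBS mean 34.9 ± 0.736 (SD, n = 2 each), a log2 difference of 1.47 (SE 0.12) or 2.78-fold. The dimmer probe set, 11719171_a_at, read 76.8 and 92.9 against 32.9 and 32.2, a difference of 1.35. Both probe sets thus gave the same order of arrays, with exosome replicate 2 highest. The spread between the exosome arrays on the brighter probe set (SD 0.277 on the log2 scale) was larger than that between the PBS arrays (SD 0.0296). With a pseudocount of 16 in place of 1 the log2 difference was 1.17, and the background of this probe set is not known. The 23 background control probe sets had mean log2 levels of 5.67 on PBS replicate 1 and 5.64 on PBS replicate 2. Their intensities on PBS replicate 1 ran from 10.4 to 3750. Both PBS readings of AKR1C1 on the brighter probe set lay below those means and within that range. The 2.78-fold difference therefore rests on PBS readings not shown to be above background.

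AKR1C2, which reduces dihydrotestosterone, had 3 probe sets that differed among themselves. The brightest, 11729101_a_at, read 230.2 and 241 after exosomes against 113 and 135 after PBS, so that the groups did not overlap. Its means were 236 ± 7.98 and 124 ± 15.4 (SD, n = 2 each), a log2 difference of 0.93 (SE 0.095) or 1.91-fold. The probe set 11761114_x_at read 89.5 and 75.8 against 54.9 and 53.4, a difference of 0.60, again with no overlap. The dimmest, 11738245_x_at, read 17.1 and 18.9 against 16.7 and 17.2, and its groups overlapped, with a difference of 0.08. As the mean of its probe sets AKR1C2 had a difference of 0.54 in place of 0.93.

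Because AKR1C1 and AKR1C2 are near copies, 3 more probe sets were annotated to both genes and stood outside the test. The brightest of them, 11754189_s_at, read 225 and 255 after exosomes against 74.0 and 69.5 after PBS. That is a log2 difference of 1.72 or 3.30-fold, larger than on any probe set given to 1 of the genes alone. The others, 11761068_s_at and 11738244_s_at, had differences of 0.08 and -0.03. Both were dim: the first read 34.7 and 34.3 against 33.2 and 31.8, and the second 19.1 and 18.8 against 17.4 and 21.7. In the array maker's names the ending _x_at marks a probe set some of whose probes also match other transcripts, and _s_at one that several transcripts share. How much of each signal comes from AKR1C1 and how much from AKR1C2 was not tested.

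**Figure D1:**
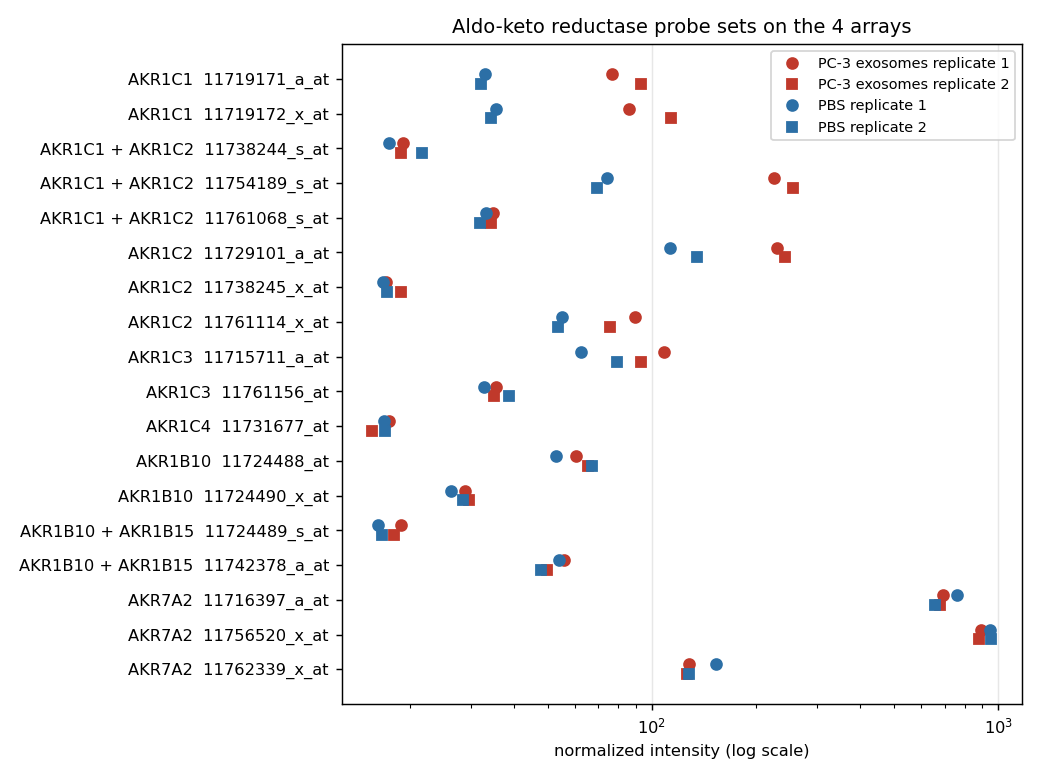
Normalized intensity (log axis) of each probe set of the measured aldo-keto reductases, with 1 point per array: red for PC-3 exosomes, blue for PBS, circles for replicate 1 and squares for replicate 2. Both AKR1C1 probe sets, 2 of the 3 AKR1C2 probe sets and the shared probe set 11754189_s_at have both red points clear above both blue points, while AKR1C4, with 15.6 to 17.4, has them mixed. Levels of different probe sets are not comparable.

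AKR1C3, which makes testosterone and prostaglandin F, read 109 and 93.3 after exosomes against 62.4 and 79.5 after PBS on its brighter probe set, 11715711_a_at. The groups did not overlap, but PBS replicate 2 lay much nearer to the exosome arrays than PBS replicate 1. The means were 101 ± 10.8 and 70.9 ± 12.1 (SD, n = 2 each), a log2 difference of 0.51 (SE 0.13). Without PBS replicate 1 that difference was 0.34. The other probe set, 11761156_at, read 35.4 and 35.0 against 32.8 and 38.6, with overlap and a difference of -0.02, and the mean of both probe sets gave 0.25.

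AKR1C4, the steroid and bile acid reductase of liver, had 1 probe set. It read 17.4 and 15.6 after exosomes against 16.8 and 17.0 after PBS, a log2 difference of -0.03 (SE 0.082) with overlapping groups. Without exosome replicate 2 the sign turned, at 0.04. Each reading lay below the mean log2 level of the background controls, which ran from 5.625 to 5.668 over the arrays. AKR1C4 is therefore not shown to be above background on any array.

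AKR1B10, a reductase of retinaldehyde that is often raised in cancers, read 60.4 and 65.4 after exosomes against 52.8 and 66.9 after PBS on its brighter probe set. PBS replicate 2 was the highest of the 4 arrays and PBS replicate 1 the lowest. The log2 difference was 0.08 (SE 0.12), and it was -0.09 without PBS replicate 1 and -0.06 with the poly-A spike-ins, bacterial control transcripts put into each sample, as the reference. The dimmer probe set read 28.9 and 29.7 against 26.3 and 28.5, a difference of 0.10. The 2 probe sets annotated to AKR1B10 and its neighbour AKR1B15 together had differences of 0.16 and 0.05.

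AKR7A2, which reduces aldehydes such as succinic semialdehyde, was the 1 member whose arrays did not overlap in the lower direction. Among all genes 21.9% did the same, so nothing is read from this. Its brightest probe set read 890 and 877 after exosomes against 947 and 956 after PBS. The log2 difference was -0.11 (SE 0.050). Its other 2 probe sets had differences of -0.05 and -0.14, where the groups overlapped or touched.

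**Figure D2:**
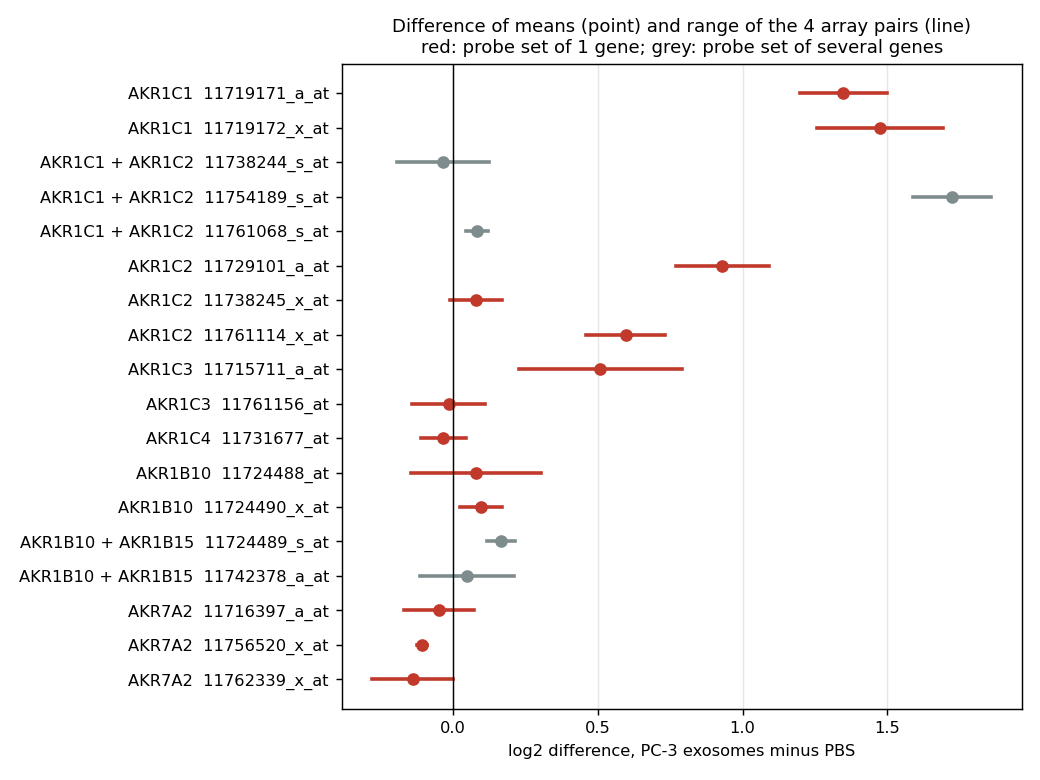
Log2 difference, PC-3 exosomes minus PBS, for each probe set: the point is the difference of the group means and the line runs over the 4 pairs of an exosome and a PBS array. Lines of both AKR1C1 probe sets start at 1.20 and 1.26, those of AKR1C4 and AKR7A2 stay within 0.28 of 0, and the probe sets of AKR1C2 and of AKR1C3 spread from near 0 to 0.93 and 0.51.

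The limma fit over all genes listed 2 of the 6 measured members, AKR1C1 and AKR1C2, both higher with exosomes, beside 0.888% of all genes in either direction and 0.7% in the higher one. That count comes from the comparison the members were chosen on, so it is no test of them. The groups did not overlap in 4 of the 6, higher in 3 and lower in 1. Beside that stand 39.8% of all genes, 17.8% higher and 21.9% lower. Of the 13 probe sets 6 were higher without overlap, beside 17.2% of all probe sets, and 1 was lower, beside 20.5%. The median log2 difference of the 6 members was 0.29 and that of all genes -0.01. The members' median was 0.15 without PBS replicate 1, 0.46 without PBS replicate 2, 0.15 on the scale of the poly-A spike-ins and 0.17 with the mean of each gene's probe sets. Nothing is read from these counts and medians either. The fit called 127 genes higher and 34 lower. Centred on the poly-A spike-ins it called 60 and 326, with a median over all genes of -0.15. On that scale every difference is 0.14 lower, so AKR1C1 stood at 1.33, AKR1C2 at 0.79, AKR1C3 at 0.37 and AKR7A2 at -0.25.

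**Figure D3:**
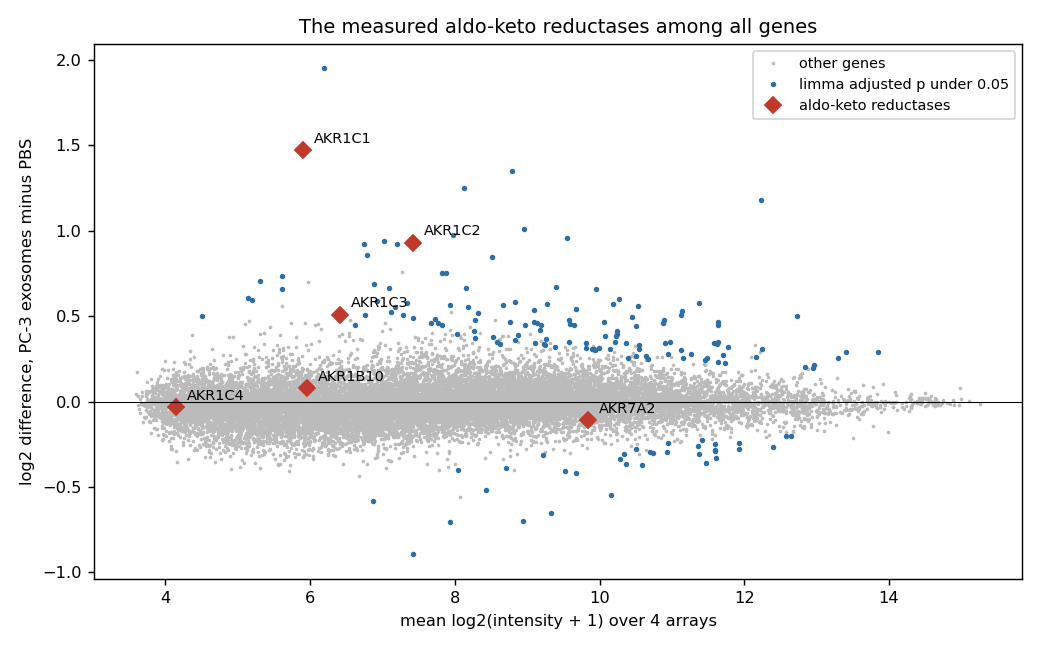
Log2 difference, PC-3 exosomes minus PBS, against the mean log2 level over the 4 arrays, with 1 point for each of 18132 genes. Blue points are past the limma threshold and red diamonds are the 6 measured aldo-keto reductases. AKR1C1 at 1.47 and AKR1C2 at 0.93 stand above the cloud, and AKR1C4, AKR1B10 and AKR7A2 lie within it.

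**Figure D4:**
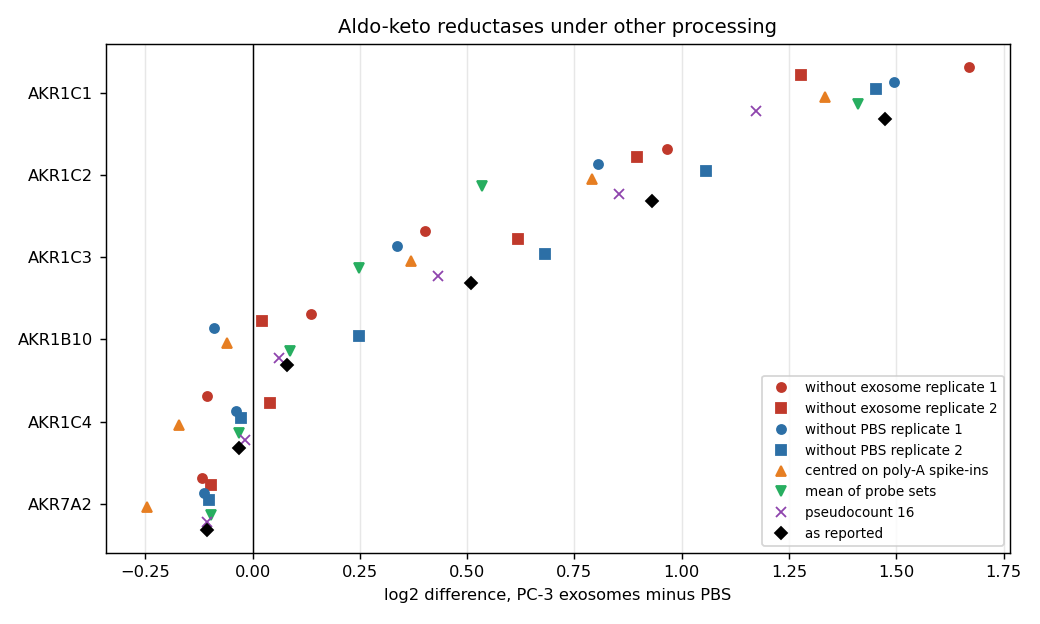
Log2 difference, PC-3 exosomes minus PBS, of each measured aldo-keto reductase as reported (black diamond), leaving out 1 array at a time, and under 3 other ways of processing. AKR1C1 stays between 1.17 and 1.67, AKR1C2 between 0.54 and 1.06 and AKR1C3 between 0.25 and 0.68, while AKR1B10 and AKR1C4 have points on both sides of 0.

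The genes whose values over the 4 arrays were most like those of AKR1C1 and AKR1C2 were found by a distance. It was the Euclidean distance between log2 values centred on each gene's mean. Candidates were the 9175 genes whose mean in the brighter of the 2 groups reached 195. That choice used the groups being compared, so it can favour genes that differ between them. A gene with equal values on all arrays would lie 1.5 from AKR1C1 and 0.949 from AKR1C2. Nearest to AKR1C1 was HMOX1, which degrades heme, at 0.178, then the retinaldehyde reductase DHRS3 at 0.414, S100P, a calcium-binding protein, at 0.418, the protease MMP7 at 0.495 and the siderophore carrier LCN2 at 0.556. Nearest to AKR1C2 were the protease inhibitor SERPINA3 at 0.145, BAMBI, which dampens TGF-beta signals, at 0.155, LCN2 at 0.181, MMP7 at 0.217 and the chemokine CXCL10 at 0.249. With 4 arrays in 2 groups, this mostly ranks genes by the size of their difference between groups. Of the genes named, DHRS3, LCN2, SERPINA3 and CXCL10 were candidates through their exosome arrays only, as their PBS means lay below 195. HMOX1, S100P, MMP7 and BAMBI lay above it in both groups.

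Of 31 listed NRF2 target genes other than the aldo-keto reductases 28 were measured, and 7 rose and 0 fell in the limma fit. Counts adjusted over the list alone were 14 higher and 0 lower, on a list drawn up with these results known. Among the lists below, that count was 4 higher and 0 lower of 19 aldehyde dehydrogenases. It was 4 and 1 of 17 carbonyl and retinaldehyde reductases, and 3 and 0 of 14 androgen receptor targets. In 22 of the 28 NRF2 targets the exosome arrays lay above the PBS arrays, beside 17.8% of all genes, and in 2 below, beside 21.9%. On those other lists, in that order, they lay above in 7, 6 and 6 genes and below in 2, 3 and 2. HMOX1 read 659 and 762 after exosomes against 278 and 275 after PBS (log2 1.35, SE 0.076, limma adjusted p = 1.4e-04). SLC7A11, which imports cystine for glutathione, read 1786 and 1802 against 1222 and 1208 (log2 0.56, SE 0.045, limma adjusted p = 0.0011). SQSTM1, an autophagy receptor that binds KEAP1, read 7960 and 8180 against 5627 and 5761 (log2 0.50, SE 0.036, limma adjusted p = 5.0e-04). GCLM, a subunit of the first enzyme of glutathione synthesis, read 2095 and 2300 against 1641 and 1553 (log2 0.46, SE 0.057, limma adjusted p = 0.0085). The other 3 were named after their values were seen: ME1, which supplies NADPH, rose by 0.35, the quinone reductase NQO1 by 0.28 and FTL, a ferritin chain, by 0.20.

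The median log2 difference of the NRF2 targets was 0.11 beside -0.01 over all genes, and -0.03 beside -0.15 on the spike-in scale, where 4 rose. The count of genes that rose was 4 without exosome replicate 1, 3 without exosome replicate 2, 3 without PBS replicate 1 and 4 without PBS replicate 2. It was 2, HMOX1 and SLC7A11, when the variance was modelled without a trend over the level. HMOX1, SLC7A11 and SQSTM1 passed in each of the 4 fits without 1 array. GCLM passed only without exosome replicate 1, ME1 only without PBS replicate 2, and NQO1 and FTL in none of those 4. Among NRF2 itself and its regulators, 8 of 9 measured, 0 passed the limma test (unadjusted p under 0.05: 1 up, 1 down). NFE2L1, a relative of NRF2, had 0.19 (limma adjusted p = 0.188), the repressor BACH1 -0.20 (limma adjusted p = 0.445) and NFE2L2, which encodes NRF2 and was singled out after its values were seen, 0.10 (limma adjusted p = 0.496).

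**Figure D5:**
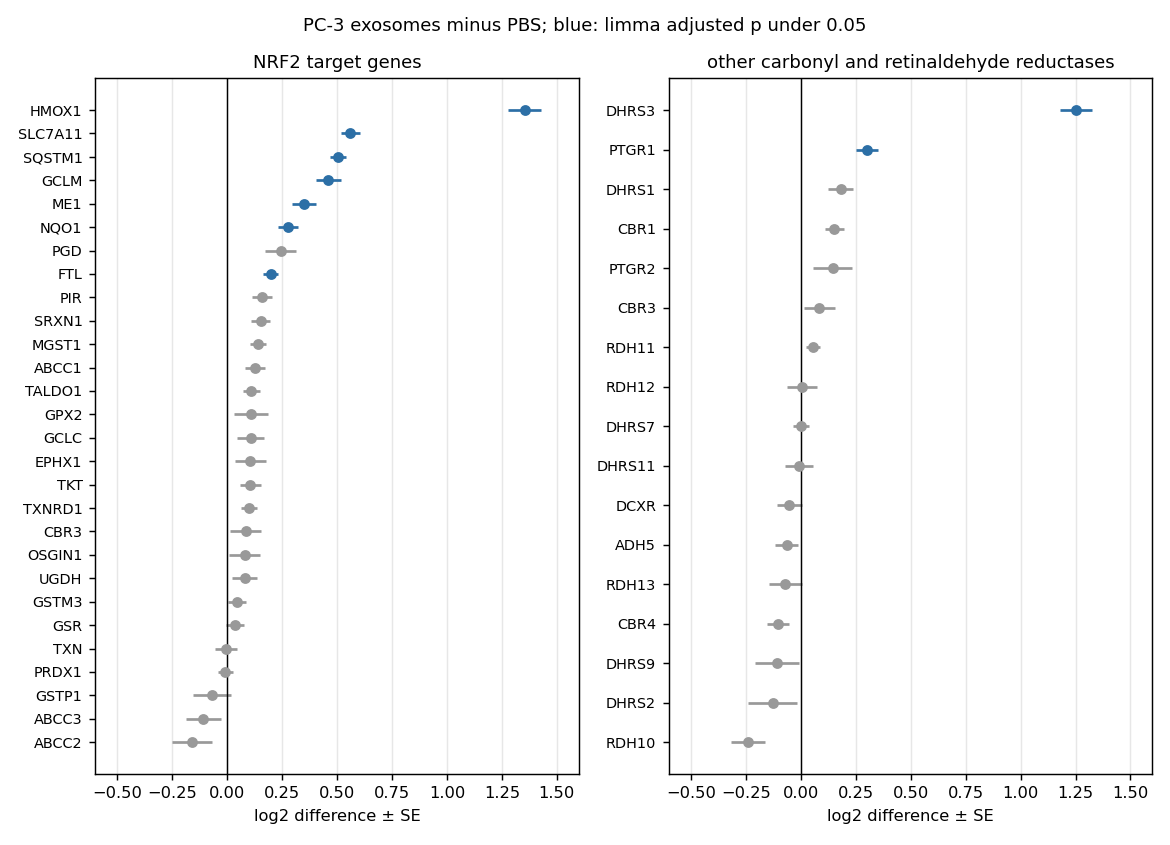
Log2 difference, PC-3 exosomes minus PBS, with its SE. On the left are the 28 measured NRF2 targets. On the right are the 17 measured genes listed as carbonyl and retinaldehyde reductases outside the aldo-keto family. Blue points passed the limma threshold: 7 on the left, led by HMOX1 at 1.35, and 2 on the right, DHRS3 at 1.25 and PTGR1 at 0.30.

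Enzymes of other families, listed as carbonyl and retinaldehyde reductases, were compared next. Of 21 listed 17 were measured, and 2 rose and 0 fell, with a median of 0.001. DHRS3 read 443 and 418 after exosomes against 174 and 186 after PBS (log2 1.25, SE 0.072, limma adjusted p = 1.4e-04). That is the brightest of its 3 probe sets. Over the 14 alternatives the DHRS3 difference ran from 0.57 to 1.30, and in 1 of them it was not past the threshold. PTGR1, a prostaglandin reductase on that list, read 1087 and 1096 against 900 and 871 (log2 0.30, SE 0.050, limma adjusted p = 0.032). PTGR1 ran from 0.28 to 0.33 over the fits without 1 array and passed in 0 of 4, and it was not past the threshold on the spike-in scale (0.16, limma adjusted p = 0.239) or without a trend (limma adjusted p = 0.210). CBR1, the main carbonyl reductase of the cytosol and named after its values were seen, had 0.15 (limma adjusted p = 0.203).

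The enzymes of androgen synthesis and inactivation, among which AKR1C2 and AKR1C3 work, had 22 of 25 measured, of which 1 rose and 0 fell. HSD17B4, of peroxisomes, read 4904 and 5091 after exosomes against 4207 and 4125 after PBS (log2 0.26, SE 0.039, limma adjusted p = 0.021). Over the fits without 1 array it ran from 0.24 to 0.29 and passed in 0 of 4, and it was not past the threshold on the spike-in scale (0.12, limma adjusted p = 0.368) or without a trend (limma adjusted p = 0.278). SRD5A1, which makes dihydrotestosterone, had 0.18 (limma adjusted p = 0.463) and HSD3B1, an early enzyme of androgen synthesis, 0.16 (limma adjusted p = 0.570), both named after their values were seen. Of the androgen receptor's own targets 14 of 16 were measured and 0 passed the limma test (unadjusted p under 0.05: 5 up, 0 down). TRPM8 had 0.31 (limma adjusted p = 0.097, from 0.022 to 0.716 over the alternatives) and TMPRSS2 0.14 (limma adjusted p = 0.173).

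AKR1C3 also acts on prostaglandins, and of 21 genes of prostaglandin synthesis, breakdown and response, all measured, 2 rose and 0 fell. They were PTGR1 and HPGD, which breaks prostaglandins down and read 586 and 585 after exosomes against 432 and 426 after PBS (log2 0.45, SE 0.057, limma adjusted p = 0.0097). Over the fits without 1 array HPGD ran from 0.44 to 0.46 and passed in 0 of 4, and it did not pass without a trend (limma adjusted p = 0.067). On the spike-in scale PTGR1 was no longer past the threshold, as given above, HPGD rose by 0.31 (limma adjusted p = 0.045), and PTGFR, the receptor of prostaglandin F, fell by 0.36 (limma adjusted p = 0.0042). As reported, PTGFR had -0.22 (limma adjusted p = 0.258), and it was named after its values were seen. Of the aldehyde dehydrogenases, which oxidise the aldehydes that aldo-keto reductases reduce, 19 of 19 were measured and 0 passed the limma test (unadjusted p under 0.05: 4 up, 0 down). ALDH2 had 0.40 (limma adjusted p = 0.060) and ALDH3A2 0.24 (limma adjusted p = 0.069). Over the alternatives the limma adjusted p ran from 0.013 to 0.364 for ALDH2 and from 0.025 to 0.602 for ALDH3A2, both lowest when the genes below the median level were left out. On the spike-in scale ALDH2 had 0.26 (limma adjusted p = 0.168) and ALDH3A2 0.10 (limma adjusted p = 0.396).

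The rest of the aldo-keto superfamily had no gene past the threshold. Of 8 listed genes 7 were measured and 0 passed the limma test (unadjusted p under 0.05: 0 up, 0 down), with a median of -0.02. AKR1B15, the close copy of AKR1B10, read 52.3 and 44.0 after exosomes against 55.8 and 47.1 after PBS (log2 -0.09, limma adjusted p = 0.846). KCNAB3, a potassium channel subunit with an aldo-keto fold, had -0.08 (limma adjusted p = 0.790), and AKR1D1, which reduces the double bond of steroids, read 34.2 to 38.6 on the 4 arrays. AKR1C8, between AKR1C3 and AKR1C4 on chromosome 10, was named after its values were seen and read 16.2 and 16.3 against 16.5 and 16.8. The readings of AKR1D1 and AKR1C8 lay below the mean levels of the background controls, so neither gene is shown to be above background.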

How the data were processed

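The deposited table holds 1 normalized intensity per probe set on a linear scale, as deposited by the authors. MAS5 and RMA appear in the submitters' processing notes with no role or version, and the build is not given in the sources used here. Of 49395 probe sets 102 were controls, 44988 named 1 gene, 1832 several and 2473 none. Values were taken to log2(value + 1). Each of 18132 genes was represented by its brightest probe set, by the mean of the 4 arrays. Folds are therefore ratios of (value + 1). Group differences were fitted with limma 3.58.1 in R 4.3.3 (lmFit, eBayes with a trend, two-sided), with Benjamini-Hochberg adjustment over all genes and a threshold of 0.05. The SE comes from this fit, which was tested on simulated data. With 2 arrays a group the smallest two-sided p of an exact permutation test is 0.333, so p-values rest on the variance model, and the number of arrays limits precision. The genes, the 11 other lists and the rules were chosen with earlier results of these data known, as were the 14 alternatives. Each list contributed the names of its 4 largest changes among genes past the threshold, or of the 2 genes with the lowest p where there were none. For AKR1C1 and AKR1C2 the 5 genes of most like pattern were named. Gene names come from GEO's platform annotation. Promoters were aligned with Biopython 1.88, and figures drawn with matplotlib 3.10.9.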

Additional observations from a re-analysis of the deposited data

How the results depend on the processing

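AKR1C1, AKR1C2 and AKR1C3 kept their direction under each alternative that gave them a value, and AKR7A2 stayed below 0. For most alternatives this was fixed in advance. Where the groups do not overlap, leaving out an array or changing the pseudocount cannot turn the sign. Fits that changed only the variance model or the genes kept left the difference itself unchanged. No alternative used the other AKR1C3 probe set alone, which had -0.02. In all 127 genes were called higher and 34 lower. Lower calls were 67 after quantile normalization, 57 among genes at or above the 30th percentile and 9 when every probe set was tested. Calls were 60 higher and 326 lower on the spike-in scale, 213 and 84 among genes at or above the median, and 18 and 3 without a trend. The replicate number as a block gave 2 and 0 genes, with 0 of the NRF2 targets and 0 members. The numbers share no stated pairing, and the correlation of same-numbered deviations over 18132 genes was -0.04. With an array left out the counts ran from 28 to 40 higher and from 4 to 7 lower: they were 40 and 7 leaving out replicate 1 of either group, 28 and 5 leaving out exosome replicate 2, and 30 and 4 leaving out PBS replicate 2. The lone array of a group is then assumed to vary like the others. Among the 12692 genes at or above the 30th percentile, which leave out AKR1C1, 1 of the 3 members left was called. The median of the members left was 0.51. At or above the median AKR7A2 alone is left, with 0 called and -0.11. Over every member probe set the median was 0.079.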
